A study of Mus musculus with 46 samples.

Results

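Adgrf1 was examined as a single gene, 1 of the 25494 genes of the liver RNA table, together with the DNA that its promoter contacts. It was chosen by its symbol, and because it stood among the largest RNA differences between the diets and is an example locus of the study for H3K27ac and Hnf4α, its own RNA, H3K27ac and Hnf4α values are given as a description with no test. The livers came from male C57BL/6 mice that arrived at 5 weeks of age, were acclimated for 1 week on chow and were then fed for 20 weeks a lipid-rich diet (LD, labelled HFD, 60% of kcal from fat and 20% from carbohydrate) or a carbohydrate-rich diet (CD, labelled LFD, 10% from fat and 70% from carbohydrate), both with 20% from protein. No mouse carried a transgene or a deleted gene by the labels. Each diet had 5 mice with RNA-seq, 3 livers with ChIP-seq of H3K27ac, 2 with ChIP-seq of each of the factors C/EBPα and Hnf4α, and 2 each with in situ Hi-C and promoter capture Hi-C (PCHi-C). The Hi-C and PCHi-C replicates of a diet were joined before domains and contacts were called, so those values have no replicate error.

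ADGRF1, also called GPR110, is an adhesion G protein-coupled receptor, a family with long extracellular regions that are cleaved next to the membrane and can activate the receptor through a tethered peptide. Its known ligand is synaptamide, an ethanolamide of docosahexaenoic acid, and in neurons the receptor couples to Gs, raises cAMP and activates protein kinase A and CREB. Hnf4α and C/EBPα are transcription factors that maintain hepatocyte gene expression, and H3K27ac is a histone mark of active promoters and enhancers. PCHi-C enriches ligated DNA pairs in which 1 end is a promoter fragment, the bait, and so lists the distant fragments that lie near that promoter in the nucleus.

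In mm9 coordinates the gene spans chr17:43407296-43461355 on the plus strand (Entrez Gene 77596), a length of 54.1 kb, and GENCODE lists it as Gpr110 with 16 exons. Distances below are from its start, positive towards the 3′ end of the gene. The sequences that follow are those of the Hnf4α loci described further on, including the one upstream where the LD samples were higher, read from NCBIM37, which is the mm9 assembly, on the plus strand. Exon 1 is untranslated, so that the start is shown by the promoter before exon 1 and by bases of intron 1. The promoter bases end before the Hnf4α locus at the start. The intron 1 bases begin inside that Hnf4α locus, which ends at 43407541. They run on to 43407652, the end of the C/EBPα locus at the start. Capitals mark matches, on either strand, to the HNF4 string CAAAGNNCA or the C/EBP string TTGCNNAA, which do not overlap in these windows.
Upstream locus at -27.6 kb, chr17:43379594-43379794: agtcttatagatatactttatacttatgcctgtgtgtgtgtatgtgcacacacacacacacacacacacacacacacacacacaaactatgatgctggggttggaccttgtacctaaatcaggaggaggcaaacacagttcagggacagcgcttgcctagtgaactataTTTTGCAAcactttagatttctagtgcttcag
Promoter, chr17:43407028-43407277: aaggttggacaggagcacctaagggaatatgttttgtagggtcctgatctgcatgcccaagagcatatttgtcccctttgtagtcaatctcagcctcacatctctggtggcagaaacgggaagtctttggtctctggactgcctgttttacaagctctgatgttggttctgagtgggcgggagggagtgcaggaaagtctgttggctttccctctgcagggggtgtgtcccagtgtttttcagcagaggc
Start locus, intron 1, chr17:43407434-43407652: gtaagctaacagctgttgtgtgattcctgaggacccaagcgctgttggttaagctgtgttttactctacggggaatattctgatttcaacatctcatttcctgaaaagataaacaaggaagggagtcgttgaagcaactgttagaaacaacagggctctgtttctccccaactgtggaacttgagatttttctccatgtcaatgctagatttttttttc
Intron 1 locus, chr17:43416587-43416787: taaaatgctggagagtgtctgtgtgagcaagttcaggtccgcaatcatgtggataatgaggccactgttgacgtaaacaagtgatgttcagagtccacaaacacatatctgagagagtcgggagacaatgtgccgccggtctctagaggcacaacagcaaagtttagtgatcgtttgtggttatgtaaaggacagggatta
Exon 12 locus, chr17:43447197-43447397: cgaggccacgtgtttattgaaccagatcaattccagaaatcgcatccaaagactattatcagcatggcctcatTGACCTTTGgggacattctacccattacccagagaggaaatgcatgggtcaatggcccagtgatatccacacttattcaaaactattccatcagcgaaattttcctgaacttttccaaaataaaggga
Downstream locus at 57 kb, chr17:43464219-43464419: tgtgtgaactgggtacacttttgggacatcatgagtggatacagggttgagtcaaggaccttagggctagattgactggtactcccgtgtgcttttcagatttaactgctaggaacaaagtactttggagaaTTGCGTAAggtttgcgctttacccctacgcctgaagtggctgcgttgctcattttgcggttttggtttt
Downstream locus at 59.7 kb, chr17:43466904-43467104: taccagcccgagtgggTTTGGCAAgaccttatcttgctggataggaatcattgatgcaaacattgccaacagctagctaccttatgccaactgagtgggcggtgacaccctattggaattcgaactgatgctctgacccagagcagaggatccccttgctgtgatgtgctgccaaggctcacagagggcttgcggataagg
The exon 12 locus has its centre in a coding exon and holds the HNF4 string on the minus strand as CAAAGGTCA. The downstream loci at 57.0 kb and 59.7 kb hold the C/EBP string as TTGCGTAA and, on the minus strand, TTGCCAAA, and the upstream locus holds it on the minus strand as TTGCAAAA. Among all 45827 Hnf4α loci with a peak in 2 samples or more, a central window as long as the intron 1 locus shown held the HNF4 string in 23.0% and the C/EBP string in 18.1%, and the shares among 32984 C/EBPα loci were 11.5% and 40.6%. The 250 bases before a gene start held them in 5.09% and 8.91% of 24655 starts. The promoter, the start locus and the intron 1 locus held neither string, which says only that these letters are not in the bases shown.

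Adgrf1 RNA was low in every LD liver and moderate in every CD liver. On LD the deposited counts were 38, 38, 5, 8 and 0 read pairs in replicates 1 to 5. On CD they were 880, 1077, 396, 1230 and 775. LD replicates 1 and 2 held most of the 89 LD counts, CD replicate 3 was the lowest CD liver, and the diets did not overlap. Scaled to a common library size with TMM factors (CPM), the LD livers had 1.03, 0.956, 0.155, 0.243 and 0, a mean of 0.476 ± 0.480 (SD, n = 5). The CD livers had 28.0, 28.1, 11.1, 39.1 and 22.6 CPM, a mean of 25.8 ± 10.2 (SD, n = 5). The ratio of these means was 54.1-fold, and the fitted log2 fold change of LD over CD was -5.69 with a standard error of 0.61, which stood at rank 5 by size among 13494 tested genes. The 0 of 33180207 counts in LD replicate 5 allows a level of up to 0.0839 CPM. The deposited TPM, which divide by transcript length, were 0.555, 0.505, 0.0831, 0.125 and 0 on LD. On CD they were 13.6, 14.8, 20.4 and 11.6 in replicates 1, 2, 4 and 5 and 5.74 in a column whose number matches no replicate. In the same TPM scale the neighbouring receptor gene Adgrf5 had 18.0 ± 2.16 on LD and 18.4 ± 0.949 on CD (SD, n = 5). Adgrf1 thus lay near Adgrf5 in level on CD and far under it on LD. Library totals ran from 31707963 to 39012699 counts. For reference, the CD mice lay above all LD mice in 8.35% of tested genes, and the LD mice above all CD mice in 10.2%, and nothing is read from the place of Adgrf1 among them.

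**Figure D1:**
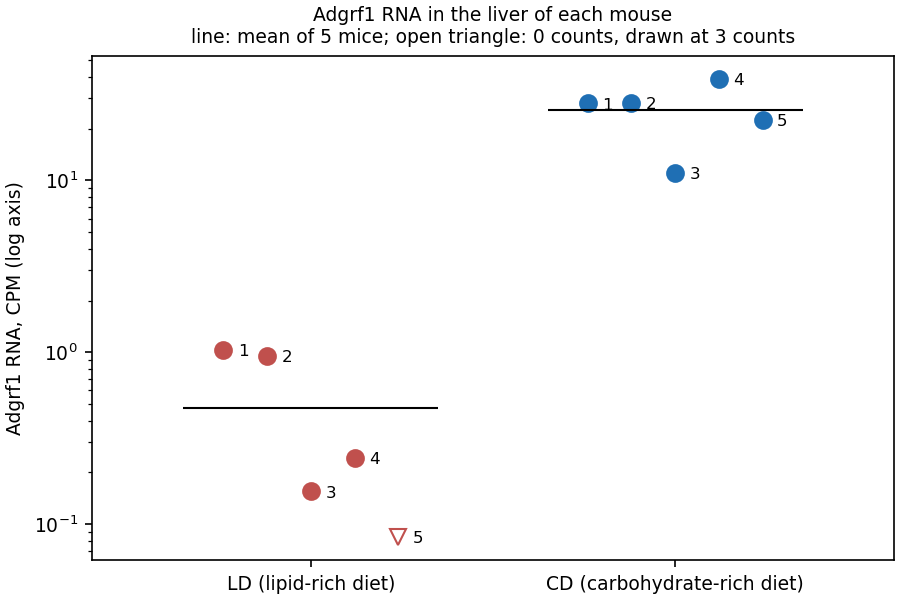
Adgrf1 RNA in CPM on a log axis, 1 point per mouse numbered by replicate, with the mean of each diet as a line. The 5 LD livers lie at or below 1.03 CPM, the open triangle marks the liver with 0 counts at the level 3 counts would give, and the 5 CD livers lie between 11.1 and 39.1 CPM.

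These are bulk livers, in which fewer cells of a type and less RNA per cell cannot be told apart. Hepatocyte markers were abundant on both diets, with Alb, which encodes albumin, at 67059 CPM on LD and 70265 on CD. Over all 13494 tested genes, 24.9% were called, 13.8% with LD the higher diet and 11.1% with CD the higher, and the counts of called genes in the lists here and below stand beside these shares. Of 10 hepatocyte markers, 4 were called higher on CD (Cps1, Fgb, Serpina1a and Tat) and none higher on LD, and their summed level ran from 96448 to 111000 CPM on LD and from 107550 to 120080 on CD. The 7 cholangiocyte markers summed to 48.6 to 125 CPM on LD and 23.1 to 37.2 on CD, with Spp1 called higher on LD. Macrophage markers summed to 356 to 1084 CPM on LD and 351 to 683 on CD, with 1 of 8 called higher on LD. Lymphocyte markers lay between 29.6 and 69.9 CPM in LD livers and between 23.1 and 30.7 in CD livers, with 1 of 7 called higher on LD. Endothelial markers ran from 438 to 604 and from 478 to 599 CPM, with 1 of 7 called higher on LD, and stellate cell markers from 547 to 879 and from 636 to 761, with 2 of 7 called higher on LD and 1 higher on CD. Of 5 adipocyte markers, Lep and Plin1 had no count in any liver, and 1 of 1 tested, Adrb3, was called higher on CD. The part of cell composition in the Adgrf1 values was not tested.

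Chromatin at the start of Adgrf1 carried broad H3K27ac peaks in the CD livers and small ones or none in the LD livers. At the start, peaks covered 2400, 2800 and 2800 bp in the 3 CD samples. LD replicate 1 had 1200 bp there and LD replicates 2 and 3 had no peak. In intron 1, centred 7 kb from the start, peaks covered 6600, 6600 and 7600 bp on CD and 1400, 600 and none on LD. The order was the reverse 18.6 kb before the gene, where the LD samples had 800, 1800 and 3400 bp and only CD replicate 2 had a peak, of 600 bp. A locus 57.8 kb from the start, just past the 3′ end, had peaks in all 6 samples, of 1000, 1800 and 1400 bp on LD and 3400, 1800 and 1000 bp on CD, which overlapped. Over the gene with 20 kb on each side, peaks covered 4.36%, 4.47% and 4.79% of the bases on LD and 13.8%, 13.5% and 12.1% on CD, so that the difference sat in the first 11 kb of the gene rather than over its length. All 3 CD samples exceeded all 3 LD samples in this share for 5.32% of 19064 genes with a peak, and all LD exceeded all CD for 21%. The LD peak lists covered more of the genome, 149.8 to 160.4 Mb against 139.7 to 145.4 Mb on CD, which is the opposite order to that at Adgrf1. The CD minus LD difference of Adgrf1 was at rank 256 of these genes, and the median gene had -0.763 percentage points. No H3K27ac locus within 20 kb of the gene had a peak in every sample of one diet and in no sample of the other, as 0.605% of all loci had for CD and 2.5% for LD. Groups of 3 cannot reach an exact p under 0.1.

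Hnf4α was bound at the start of Adgrf1 on both diets, with taller peaks on CD. The height of a peak is the number of its sequenced tags scaled to a common library size, and 1 tag was worth 0.25 in all 4 Hnf4α lists. At the start locus, over exon 1, the heights were 32.0 and 11.2 on LD and 46.2 and 66.8 on CD. These exceeded 69.6% and 26.8% of the peaks of their own LD samples and 89.1% and 85.3% of those of the CD samples. At the intron 1 locus, 9.39 kb from the start, the height was 8.75 in LD replicate 1, no peak was called in LD replicate 2, and CD had 15.0 and 33.2. At the exon 12 locus, 40.0 kb from the start, LD replicate 1 had 14.5, LD replicate 2 had no peak, and CD had 16.0 and 32.2. The CD samples lay above the LD samples at all of these loci, by little between LD replicate 1 and CD replicate 1 in exon 12. The downstream locus at 59.7 kb had 21.2 and 25.5 on LD and 23.0 and 49.2 on CD, so that the diets overlapped. The locus at 57.0 kb had a peak in 1 sample of each diet, of 10.8 and 9.5. Outside the gene the order turned at an intergenic locus 27.6 kb before the start, with 32.5 and 29.0 on LD and 10.5 and 21.0 on CD.

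Within 20 kb of the gene, 3 of 5 Hnf4α loci seen in 2 samples or more had both CD heights above any LD height and 0 had the opposite order, against 6.49% and 22.2% of 45851 such loci over the genome. No locus there had a peak in both samples of one diet and in neither of the other, as 2.57% of all Hnf4α loci had for CD and 4.85% for LD. Heights within this window summed to 87.2 and 36.7 on LD and to 100.2 and 195.4 on CD, a CD minus LD difference of 85.8, which was 38.2 without CD replicate 2 and 133 without CD replicate 1. Flanks of 50 kb take in the upstream locus where the LD samples were higher. The sums were then 130.55 and 65.7 on LD and 110.7 and 216.4 on CD. In that wider window the diets overlapped, and the difference was 65.4. RNA of Hnf4a itself was 400 ± 34.7 CPM on LD and 478 ± 19.3 on CD (SD, n = 5), a log2 fold change of -0.26 with edgeR adjusted p = 0.0176 that did not reach the fold of 1.2 required for a call. It was called without LD replicate 4 or without CD replicate 1.

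C/EBPα was called at the start of Adgrf1 in the CD samples only. The heights there, at the start of intron 1, were 22.5 and 12.5 on CD, and no peak was called in either LD sample. Such a pattern was seen for 1.77% of all C/EBPα loci, and the reverse, which no locus within 20 kb of the gene had, for 5.18%. Along the gene, the exon 12 locus had 9.0 and 7.0 on LD and 27.5 and 20.5 on CD. The downstream locus at 57.1 kb had 9.5 and 6.5 on LD and 29.0 and 17.5 on CD, and that at 59.7 kb had 13 and 12 on LD and 34.5 and 27 on CD. Both CD samples were higher at each of these loci. The intron 1 locus at 9.45 kb differed, with 6.5 and 6.0 on LD, 14.5 in CD replicate 1 and no peak in CD replicate 2. Of 7 C/EBPα loci within 20 kb of the gene that were seen in 2 samples or more, 4 had both CD heights above any LD height and 0 the opposite order, against 29.6% and 23.3% of 33006 loci over the genome. At each of the 3 loci where all 4 samples had a peak both CD heights were the larger, and so it was at 46.4% of 13813 such loci genome-wide, so that taller C/EBPα peaks on CD were common in these lists. Heights summed to 48.0 and 41.0 on LD and 159.0 and 106.0 on CD. The differences in height were not tested, since the peak lists hold no counts outside the called peaks. Cebpa RNA was 321 ± 26.8 CPM on LD and 384 ± 23.5 on CD (SD, n = 5), a log2 fold change of -0.26 with edgeR adjusted p = 0.0202, under the fold of 1.2. It was called by DESeq2, with DESeq2 size factors, and without LD replicate 1, 3 or 4 or CD replicate 3 or 4.

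**Figure D2:**
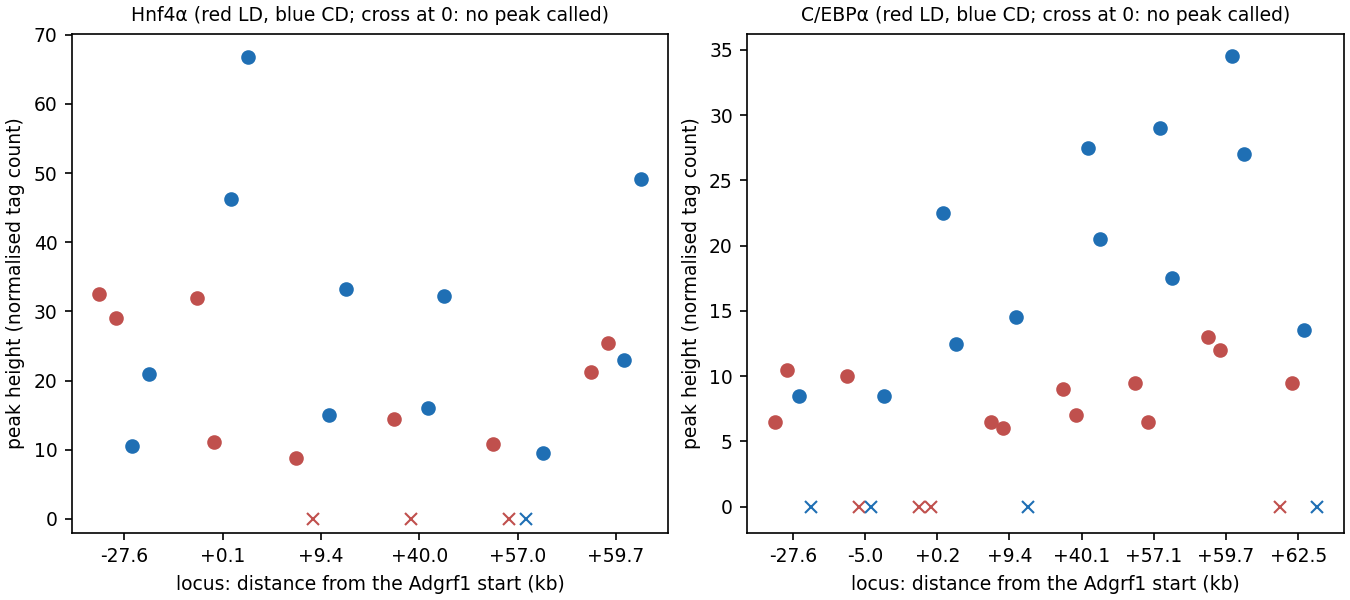
Peak heights (normalised tag counts) of Hnf4α and C/EBPα in each sample at loci near Adgrf1 with a peak in at least 2 samples, by distance from the gene start in kb, with crosses at 0 where no peak was called. Hnf4α heights at the start reach 46.2 and 66.8 on CD, and the locus 27.6 kb before the start has the LD samples higher at 32.5 and 29.0.

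**Figure D3:**
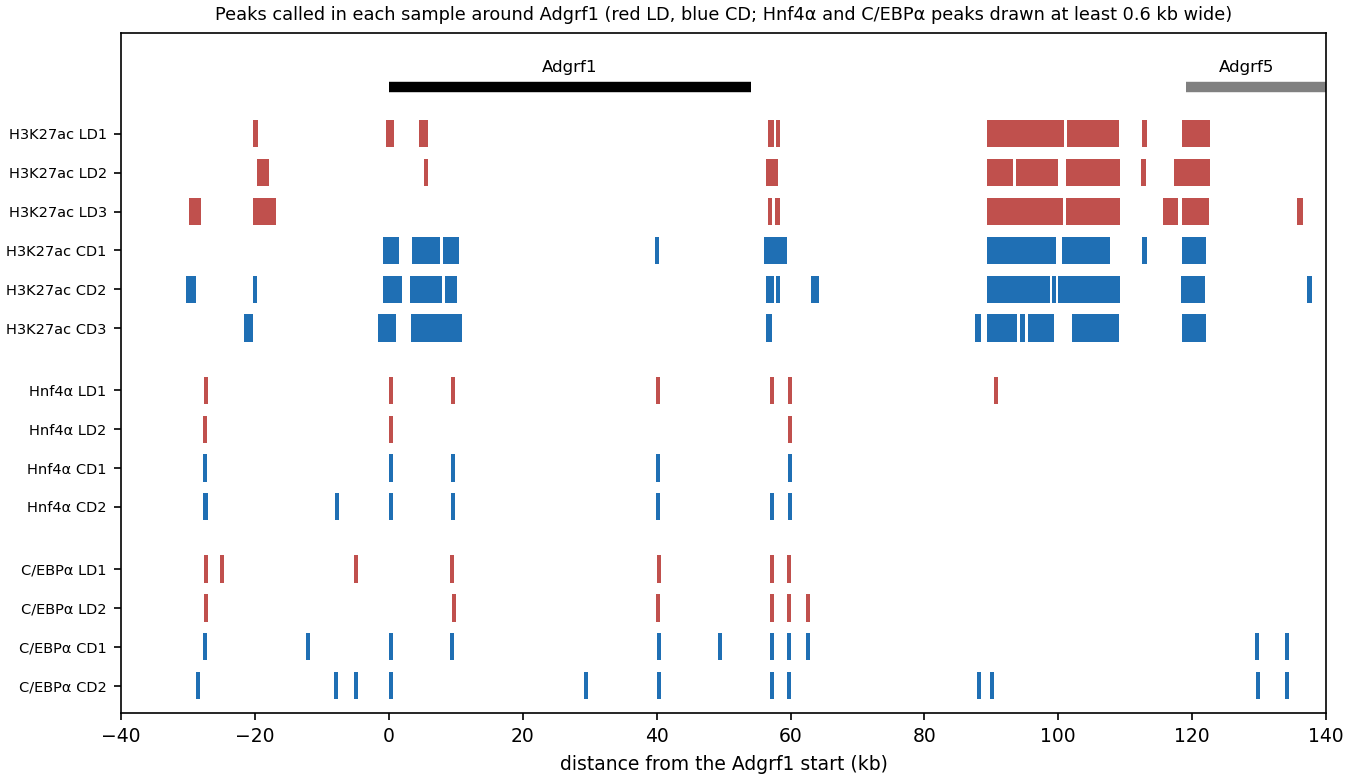
Peaks called in each sample by distance from the Adgrf1 start in kb, LD in red and CD in blue, with the genes drawn above. The H3K27ac blocks in the first 11 kb of Adgrf1 are wide in the 3 CD samples and small or missing in the 3 LD samples, while the block from about 89 kb and the peaks at the Adgrf5 start are present in all 6.

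The promoter bait of Adgrf1 was the fragment chr17:43398039-43409718, 11680 bp long, which holds the start site, exon 1 and the first bases of intron 1. It had 48 contacts on LD and 51 on CD at a CHiCAGO score of at least 5. The score weighs the reads of a pair of fragments against the number expected at that distance. Baits with at least 1 listed contact numbered 16508 on LD and 16130 on CD. Among these the median bait had 5.0 contacts on either diet, and 2.91% on LD and 2.77% on CD had as many as Adgrf1 or more. Of the 57 contacts on either diet, 42 were on both, 6 on LD alone and 9 on CD alone, a shared part of 73.7% (Wilson 95% interval 61.0 to 83.4, counting error only), beside 53.8% of 195691 contacts of all baits. That background was not matched for score. The median score of the Adgrf1 contacts was 9.23 on LD and 7.38 on CD, against 6.78 and 6.86 for contacts of all baits. Scores on the diets were close: over the 42 shared contacts the median absolute difference was 1.42, the largest was 5.08, and 17 were higher on CD and 25 higher on LD. Contacts on 1 diet were mostly near the limit, with scores of 5.01 to 6.27 in all but that of the 1700071M16Rik fragment.

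The contacts fell into 1 upstream and 2 downstream stretches and a lone fragment. The strongest stretch, with 33 contacts, 26 of them on both diets, ran from 135 to 257 kb downstream. It took in Mep1a, the gap between Adgrf5 and Mep1a, and all of Adgrf5 but its 5′ part. Its top fragment, chr17:43597673-43598499, lies 190.8 kb from the start in intergenic DNA past the 3′ end of Adgrf5. Its score was 34.87 on LD and 33.67 on CD, and 0.163% of all LD scores and 0.437% of all CD scores were as high. The fragment next to it, whose midpoint lies in an untranslated exon of Adgrf5, had 28.84 on LD and 33.17 on CD. The Mep1a promoter fragment, at 231.6 kb, had 11.17 on LD and 12.41 on CD. Mep1a encodes the alpha subunit of meprin, a secreted metalloprotease.

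The upstream stretch ran from -288.5 to -238.5 kb, before the start, around the promoter and intron sequence of Tnfrsf21, which encodes a death receptor of the TNF receptor family. It had 15 contacts, 11 on both diets, with scores up to 9.68 on LD and 9.93 on CD. The Tnfrsf21 promoter fragment scored 9.13 on LD and 6.57 on CD. The far downstream stretch, from 319 to 369 kb over Pla2g7 and Tdrd6, had 8 contacts, 5 on both diets. Pla2g7 encodes platelet-activating factor acetylhydrolase. The strongest contact of the stretch, with the promoter fragment of the noncoding gene 1700071M16Rik inside Pla2g7, was listed on LD at 12.05 and not on CD. The lone fragment held the promoter of Cd2ap, an adaptor of the actin cytoskeleton, and was listed on CD at 5.22. No contact was listed between -238.5 and 135 kb. That span holds the H3K27ac block between 89 and 109 kb downstream, which covered 18.4 to 19.6 kb per LD sample and 16.2 to 19.2 kb per CD sample, and the Adgrf5 promoter.

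**Figure D4:**
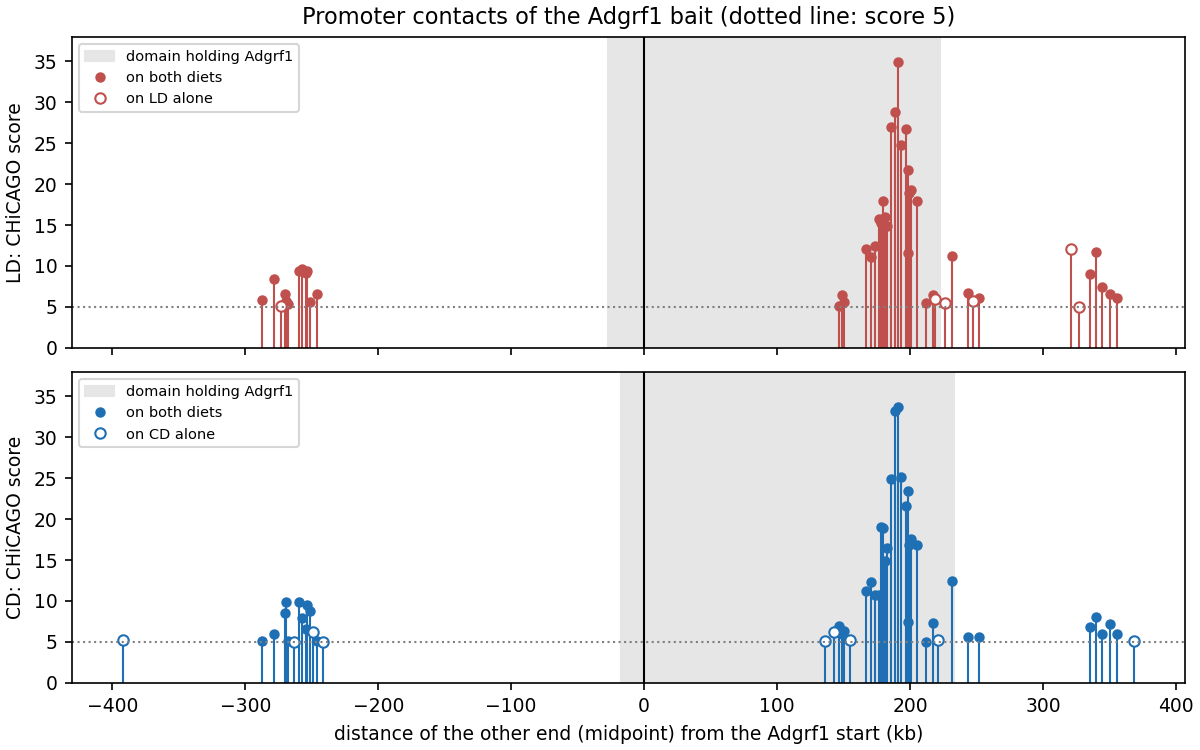
CHiCAGO scores of the contacts of the Adgrf1 bait by distance of the other end from the gene start in kb, LD above and CD below, with open points for contacts on that diet alone and the domain that holds the gene in grey. On both diets the highest scores, 34.87 on LD and 33.67 on CD, stand at 190.8 kb downstream.

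Few of the distant ends carried the profiled marks. An H3K27ac peak in at least 1 sample overlapped 10 of the 57 ends (17.5%), an Hnf4α peak 7 (12.3%) and a C/EBPα peak 9 (15.8%), and 37 ends had none of the 3. Over all other ends of all baits these shares were 35.2%, 18.9% and 22.4% of 101027. The Tnfrsf21 ends at -253.2 and -251.3 kb and the Cd2ap end had H3K27ac in all 6 samples, the Tnfrsf21 promoter end in 5. At the strongest downstream ends the H3K27ac peak of 800 and 2000 bp near 190 kb was called in LD replicates 1 and 2 and in no CD sample. An Adgrf5 intron end at 150 kb had the mark in 3 CD samples and 1 LD sample. Hnf4α peaks at the ends were low and in 1 or 2 samples each. In LD replicate 1 alone a single peak of height 7.25 lay across the border of the top fragment and the Adgrf5 fragment next to it. This 1 peak is counted at both ends. That sample alone also had 3.5 at 226.4 kb and 9.75 at the Mep1a promoter. The end at 149 kb had 13.8 in LD replicate 1 and 11.8 in CD replicate 2. The Cd2ap end had 11.0 in CD replicate 1 alone, and the 1700071M16Rik end 13.2 in CD replicate 2 alone. The only end with C/EBPα in all 4 samples was that of 1700071M16Rik, with heights of 13.5 and 23.0 on LD and 11.0 and 7.5 on CD.

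The domain that holds the Adgrf1 start was 250 kb long on both diets. It ran from 43380000 to 43630000 on chromosome 17 in the LD list and from 43390000 to 43640000 in the CD list, in bins of 10 kb. The lists thus shared 240 kb, and both borders lay 10 kb further downstream on CD. Both borders lay within 10 kb of those of a CD domain for 61.8% of LD domains, and 40.8% had both borders equal. Counted from the CD list these shares were 63.2% and 41.8%. The Adgrf1 start was 27.3 kb inside the domain on LD and 17.3 kb inside on CD. The Hnf4α locus at 27.6 kb before the start lies at the LD border. By their midpoints, 24 of 48 contacts on LD and 28 of 51 on CD lay inside the domain of that diet, and the Tnfrsf21 and Pla2g7 stretches lay in the adjoining domains.

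The other genes of the domain were Adgrf5 and, in the CD list only, Mep1a, whose start lies 232.4 kb downstream. Adgrf5, also called GPR116, encodes an adhesion receptor known for its role in lung surfactant balance and expressed in endothelium. Its counts were 3190, 3606, 2747, 2223 and 2709 on LD and 3084, 3338, 2916, 2747 and 2844 on CD. The diets overlapped, and the log2 fold change of LD over CD was -0.11 with a standard error of 0.08 and edgeR adjusted p = 0.373. Mep1a had 2 counts on LD and 0 on CD and was not tested. So 0 of 1 tested neighbour in the domain was called by edgeR or by DESeq2 (0 at an unadjusted p under 0.05), beside the 24.9% called over all tested genes.

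Of the 19 other genes with a start within 1 Mb, 10 were tested and 2 were called, both higher on LD, opposite in sign to Adgrf1. Rcan2, an inhibitor of calcineurin 531.5 kb downstream, had 465, 352, 582, 672 and 642 counts on LD and 145, 126, 236, 164 and 213 on CD. The diets did not overlap, with a log2 fold change of 1.59, a standard error of 0.24 and edgeR adjusted p = 0.000846. Pla2g7, which holds contacted fragments, had 221, 405, 233, 204 and 285 counts on LD and 202, 201, 129, 167 and 187 on CD, which overlapped. Its log2 fold change was 0.53 with a standard error of 0.17 and edgeR adjusted p = 0.0321. The Pla2g7 call was lost without LD replicate 2, 3 or 5 or CD replicate 2, 3, 4 or 5, at adjusted p-values of 0.0529 to 0.0764. Enpp5, an ecto-nucleotide pyrophosphatase family member, was higher in every LD mouse by a log2 fold change of 0.25 (edgeR adjusted p = 0.00529), under the fold required. It was called on the TPM values and without LD replicate 2. Tnfrsf21 and Cd2ap, whose promoters the bait contacts, had log2 fold changes of 0.06 and -0.06 with edgeR adjusted p = 0.760 and 0.706. The noncoding 1700071M16Rik had 1 count on LD and 0 on CD.

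**Figure D5:**
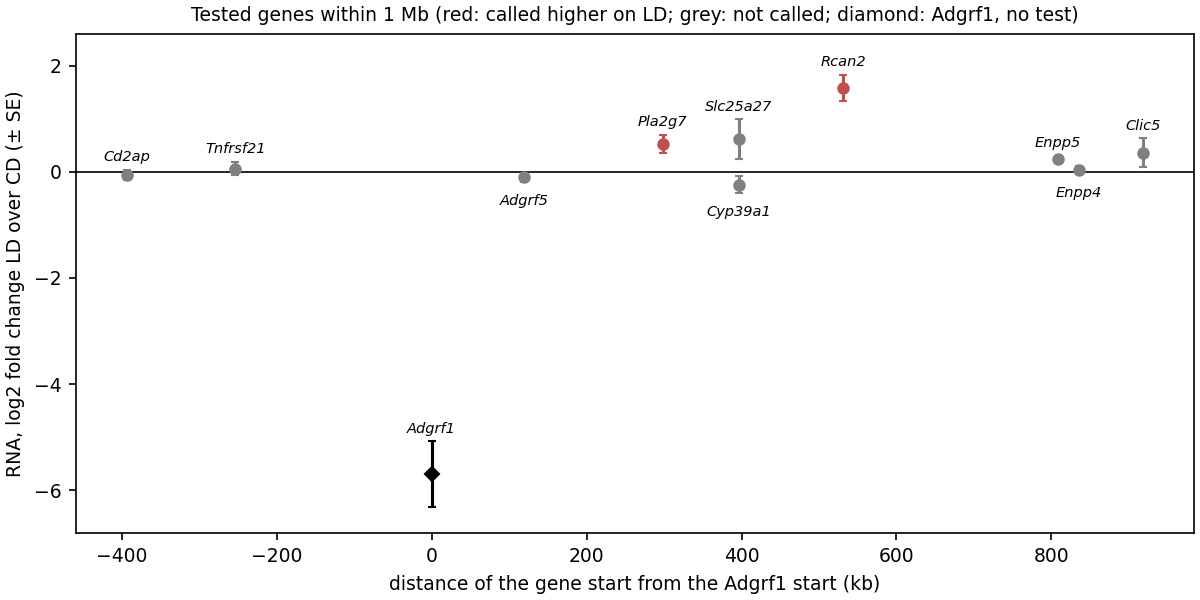
Fitted log2 fold change of RNA (LD over CD) with its standard error for the tested genes with a start within 1 Mb of that of Adgrf1, by distance in kb. Adgrf1 stands at -5.69, Rcan2 and Pla2g7 are the called neighbours at 1.59 and 0.53, and Adgrf5 lies at -0.11.

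Besides Adgrf1 and Adgrf5, the subfamily was near the limit of detection. Adgrf2 had 5 counts on LD and 13 on CD, Adgrf4 had 4 and 1, and Adgrf3 had none, so that none of these was tested. Of 29 other adhesion receptor genes, 17 were tested, 3 were called higher on LD and 1 higher on CD, a called share near the 24.9% of all tested genes, with a median log2 fold change of 0.11 beside -0.0019 over all tested genes. Adgrv1, a very large receptor needed in the inner ear and retina, rose from 5.44 ± 0.822 CPM on CD to 31.2 ± 6.43 on LD (SD, n = 5), a log2 fold change of 2.52 with edgeR adjusted p = 2.593e-06. Adgrg2, best known from the male reproductive tract, had 2.42 ± 0.489 CPM on LD and 1.12 ± 0.305 on CD (edgeR adjusted p = 0.00264). The latrophilin Adgrl3 had 92 counts on LD and 38 on CD, a log2 fold change of 1.2 with edgeR adjusted p = 0.0269, and the call was lost without LD replicate 1, CD replicate 2 or CD replicate 5, at 0.0508 to 0.0654, and by limma on log2(TPM + 1), at 0.0819 with a log2 fold change of 0.13. Adgrl2, another latrophilin, fell on LD to 45.8 ± 3.12 CPM from 62.6 ± 4.08 on CD (edgeR adjusted p = 0.000410).

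Genes of the cAMP route and of synaptamide turnover included calls in both directions. Of 34 genes listed, 31 were tested, 3 were called higher on LD and 3 higher on CD, beside 24.9% of all tested genes called in either direction, with a median log2 fold change of -0.18. The count of called genes was 9 without LD replicate 2 and 8 without LD replicate 5. The phosphodiesterases, which break down cAMP, differed among themselves. Pde4b had 23.9 ± 2.68 CPM on LD and 43.6 ± 2.19 on CD (log2 fold change -0.87, edgeR adjusted p = 1.651e-05). Pde4c was likewise higher on CD (-0.69, adjusted p = 0.000184), and Pde4d was higher on LD (0.61, adjusted p = 0.00536). Among the adenylyl cyclases, which make cAMP, Adcy7 was higher on LD (0.76, edgeR adjusted p = 0.00259) and Adcy9 higher on CD (-0.48, adjusted p = 0.000675). Napepld, an enzyme that releases N-acylethanolamines, had 2.62 ± 0.489 CPM on LD and 1.42 ± 0.422 on CD (edgeR adjusted p = 0.00798). Gnas, which encodes the Gs alpha subunit, and Faah, which degrades N-acylethanolamines, were not called, with log2 fold changes of 0.11 and -0.01.

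The 8 tested genes whose log2 CPM, after subtraction of each gene's mean, lay nearest to that of Adgrf1 over the 10 mice were Hsd3b5, Cyp4a12b, Nat8f7, Glra3, Serpina4-ps1, Mup7, Pcdh20 and Serpina1e, with root mean square differences of 1.35 to 2.06. The nearest, Hsd3b5, a hepatic steroid dehydrogenase, had 681, 1160, 52, 8 and 4 counts on LD and 12383 to 15048 on CD. Cyp4a12b, a fatty acid hydroxylase, had 205, 190, 70, 21 and 12 on LD and 1023 to 1300 on CD. In both genes, as in Adgrf1, LD replicates 1 and 2 held the highest LD values, an order that the choice by likeness favours. Glra3, a glycine receptor subunit, had no count on LD and 12 to 22 on CD. In all 8 every LD mouse had a lower CPM than any CD mouse, as the choice by likeness makes likely. Of these, 6 were called and Mup7 and Serpina1e were not, with edgeR adjusted p = 0.124 and 0.117. Mup7 was called without LD replicate 1 (adjusted p = 0.0406) and Serpina1e without LD replicate 2 (0.0380), and both were called by DESeq2 and by limma on TPM with either pseudocount. The call of Serpina4-ps1 was lost with a replicate block (adjusted p = 0.0830). Cyp4a12b, Nat8f7, Mup7, Serpina4-ps1 and Serpina1e belong to families of similar genes whose reads may be shared, so their values are uncertain.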

How the data were processed

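Samples were assigned to diets from their labels. RNA-seq, ChIP-seq, Hi-C and PCHi-C of mouse liver were used as deposited on mm9. The authors aligned RNA read pairs with STAR 2.5 (submitters' processing notes), counted them by strand on RefSeq genes with featureCounts 1.5.0-p1 and deposited unnormalised counts and TPM values. The columns with the authors' own fold changes and adjusted p-values were not used. H3K27ac peaks are intervals that the authors called per sample with SICER. Transcription factor peaks were called by the authors with HOMER for each sample, and the deposited height is a signal, a normalised tag count. The CHiCAGO score deposited by the authors and their TADs come from joined replicates.

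The gene, the lists and the motif strings were chosen with earlier results of these data known. Counts were fitted over all genes with edgeR 4.0.16 in R 4.3.3 (TMM, filterByExpr, robust quasi-likelihood), and a call required a fold above 1.2 with p adjusted by Benjamini-Hochberg below 0.05. The standard error is the fold change divided by the root of the test statistic. Replicates are separate mice by the study's methods. Alternatives were DESeq2 1.42.0, its size factors, no filter, limma 3.58.1 on log2 TPM with 1 or 0.1 added, a replicate block and leaving out each sample, and, for the other measurements, other windows, heights and scores. A locus is the union of the peaks, over samples, that overlap each other (Python 3.11.15). The rule names Adgrf1, the genes of its domain, the other Adgrf genes, called genes of the adhesion receptor and cAMP lists, Hnf4a, Cebpa and the 8 nearest profiles. Genes within 1 Mb, Gnas, Faah and marker genes fall outside the rule and were chosen after their values were seen. Steps were tested on simulated data. Peak lists give no reads outside peaks, so a missing peak is not an absence of binding. The call of 1 cholangiocyte marker is not reported here.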

Additional observations from a re-analysis of the deposited data

Results flagged for a closer look

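Among the named genes, 61 groups of 5 mice were searched for a mouse far from the other 4, and 4 were found, where chance gives about 1 in 20. Serpina4-ps1 had 124.3 CPM in CD replicate 4 against 26.99 to 34.3 in the other CD mice. Adcy9 had 43.0 CPM in CD replicate 1 against 49.7 to 51.8. Hnf4a had 458.9 CPM in LD replicate 4 against 372.2 to 397.1. Cd2ap had 67.8 CPM in CD replicate 2 against 55.8 to 59.2. Adgrf1 itself had no such mouse on either diet.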

How the results depend on the processing

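Adgrf1 RNA kept its direction in every alternative run, with log2 fold changes of -6.15 to -5.37 when each mouse was left out and -5.47 on log2(TPM + 0.1), and it was smaller, -3.43, on log2(TPM + 1), where the added 1 exceeds the LD levels. The CD minus LD share under H3K27ac was 8.61 percentage points with 20 kb flanks, 14.4 with 5 kb and 5.02 with 50 kb, and the widest window takes in most of the downstream block present on both diets. Contacts shared by the diets, 73.7% as reported, were 69.7% at a score of at least 7, 85.7% at a score of at least 10 and 94.7% where other ends within 10 kb counted as shared. The count of called neighbours was 2 for a 1 Mb window in place of the domain. Over all genes, the genes called higher on LD numbered 2220 and those higher on CD 740 by limma on TPM with 1 added, 2337 and 782 with 0.1 added, and 1859 and 1498 by edgeR. The replicate numbers do not pair the mice (correlations of same-numbered deviations from -0.0703 to 0.185, with 1 of 5 LD mice closest to its own number), and a replicate block gave 3173 calls in place of 3357, 0 in the domain, 4 adhesion receptor and 7 cAMP genes, a change of -5.78 for Adgrf1 and adjusted p = 0.0830 for Serpina4-ps1. DESeq2 called Cebpa, Mup7 and Serpina1e, which edgeR did not call. Over the tested genes within 1 Mb, the called genes of the adhesion receptor and cAMP lists, Hnf4a, Cebpa and the 8 nearest profiles, a call stayed as it was in 448 cases, was gained in 20 and lost in 12, and no direction of a called gene reversed; marker genes, Gnas and Faah were not rerun one by one. Depth limits Adgrf1 on LD, where 3 counts correspond to 0.0755 to 0.0931 CPM.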
